A study of Homo sapiens with 24 samples.

Results

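The hypoxia-responsive genes are 10 genes that cells switch on when oxygen falls: EGLN1, EGLN3, VEGFA, BNIP3, ADM, NDRG1, PDK1, CA9, SLC2A1 and SLC2A3. They were chosen by name, and a probe set (a group of short probes for a transcript on the array) was taken for a gene where that gene was its single listed symbol. Of the 19775 genes with such a probe set, 9 were members, with 22 probe sets in all. CA9, a cell-surface carbonic anhydrase, has no values here because no listed probe set carried its symbol. RNA was measured on 24 expression arrays in 8 groups of 3, and the study asked how nuclear genes respond when mitochondrial DNA (mtDNA) is lost. HEK293 cells, a human embryonic kidney line, carried DN-POLG, a dominant negative form of the mtDNA polymerase that doxycycline turns on. They were sampled uninduced (day 0) and after 3, 6 and 9 days of doxycycline. The same DN-POLG cells overexpressing AOX/NDI1, here called NDI1/AOX, were sampled uninduced and at day 9. NDI1 is a yeast NADH dehydrogenase and AOX an alternative oxidase, which pass electrons to oxygen without the mtDNA-encoded complexes. 143B osteosarcoma cells were compared as rho+ cells, which keep mtDNA, and rho0 cells, depleted of it for a long time with ethidium bromide. All cells grew in high-glucose medium with uridine and pyruvate, and the controls and the depleted cells shared it. Each model is 1 cell line, and the uninduced HEK293 cells received no doxycycline, so the drug and the transgene it induces cannot be told apart.

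In cells with ample oxygen, EGLN1 and EGLN3 (the prolyl hydroxylases PHD2 and PHD3) mark the HIF alpha proteins for destruction, and they use oxygen and 2-oxoglutarate, a metabolite of the mitochondrial tricarboxylic acid cycle. When hydroxylation slows, HIF accumulates in the nucleus, binds a short DNA element and raises its targets. These include EGLN1 and EGLN3 themselves, the glucose carriers SLC2A1 and SLC2A3, PDK1, BNIP3 and the secreted factors VEGFA and ADM. Mitochondria consume most of a cell's oxygen, so the pathway and respiration are linked. Oxygen was not measured here, and arrays read RNA, not HIF protein or its hydroxylation.

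RefSeq promoters (250 bases before to 50 after a transcript start, build GRCh38.p14) were read for 7 of the 10 members: EGLN1, EGLN3, SLC2A1, PDK1, BNIP3, CA9 and ADM. VEGFA and SLC2A3 were not matched. The search of members left out the chromosome of NDRG1, so whether NDRG1 has a listed promoter was not checked. The shares over all promoters below were counted without that exclusion. The core of the element that HIF binds was searched as ACGTG or GCGTG on either strand. It was present in 6 of the 7 members, and in 48.4% of all 35116 promoters of that length. ACGTG alone was present in 4 of the 7, and in 21.4% of all promoters. The stretches below are shown because they place the letters in the sensors and in the metabolic and secreted members. Each runs 5′ to 3′ along the gene's own strand, and capitals mark a match on either strand, so that CACGT and CACGC are the cores read from the other strand.
EGLN1: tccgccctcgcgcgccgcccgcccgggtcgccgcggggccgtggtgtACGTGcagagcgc
EGLN3: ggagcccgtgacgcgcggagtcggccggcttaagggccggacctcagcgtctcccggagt
PDK1: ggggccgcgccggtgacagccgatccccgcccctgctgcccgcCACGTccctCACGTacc
BNIP3: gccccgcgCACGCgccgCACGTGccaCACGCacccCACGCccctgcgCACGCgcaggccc
CA9: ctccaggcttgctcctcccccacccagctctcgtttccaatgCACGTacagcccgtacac
ADM: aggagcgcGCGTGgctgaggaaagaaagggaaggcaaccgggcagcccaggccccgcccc

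The EGLN1 stretch lies at chr1:231422288-231422347 on the minus strand, and its ACGTG begins 13 bases before the start. The EGLN3 stretch, at chr14:33951075-33951134 on the minus strand, holds no match, and neither does the rest of its window. The PDK1 stretch belongs to the second of its 2 listed starts, at chr2:172556030-172556089 on the plus strand, with matches 17 and 8 bases before it. The BNIP3 stretch, at chr10:131982015-131982074 on the minus strand, holds all 6 matches of that window, from 143 to 104 bases before the start, and its 2 ACGTG matches overlap as the palindrome CACGTG. CA9 has its match 18 bases before the start, at chr9:35673868-35673927 on the plus strand. ADM has a GCGTG 101 bases before the start, at chr11:10304964-10305023 on the plus strand. SLC2A1 has a GCGTG 26 bases into the transcript. A match is a description of the letters, not evidence of binding.

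The labels were checked on the arrays. POLG probe set 217635_s_at was higher by 3.26 on the log2 scale at day 3 (adjusted p = 0.3679), by 3.60 at day 6 (0.00827), by 3.54 at day 9 (0.000857) and by 2.76 at day 9 in NDI1/AOX cells (0.003325), while POLG 203366_at did not pass the test in any of them. The mtDNA transcripts COX2 (1553569_at), ATP6 (1553567_s_at) and ND6 changed by -1.85, -2.51 and -2.53 at day 9 in DN-POLG cells. Of the 12 tested probe sets of POLG and the mtDNA genes, 8 genes in all, 5 were called lower there, of 3 genes. In NDI1/AOX cells at day 9, 4 were called lower, also of 3 genes. In 143B rho0 cells 9 probe sets of 7 mtDNA genes were lower, with log2 changes of -11.67 to -7.62. LIN28B had a mean signal of 4645 in HEK293 cells at day 0 and SPARC one of 6598 in 143B rho+ cells against 48.6 in HEK293 cells. Some markers of the lines went against them: NEFM was low in HEK293 cells, and THY1 and S100A4 were low in 143B cells. The 5 markers of blood, liver and endothelium stayed at mean signals up to 134.5, the highest being HBB. The ratio of 3′ to 5′ signal of ACTB, which rises when RNA is broken, lay between 1.05 and 1.81 in 17 of the 18 HEK293 arrays, was 8.92 in DN-POLG day 6 replicate 1, and lay between 5.53 and 17.1 in 143B arrays. Those of rho0 cells were all below those of rho+ cells (5.53 to 8.12 against 10.4 to 17.1, exact two-sided permutation test p = 0.1, the smallest that 3 against 3 can give). Setting every array to one median moved the median change of all probe sets by 0.106 (log2) at day 6, by 0.139 at day 9 in NDI1/AOX cells and by 0.306 in 143B cells.

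Levels are given as MAS5 signal, a linear brightness that can be compared between arrays for 1 probe set but not between probe sets. Log2 changes come from limma (a linear model fitted to all probe sets), with the standard error (SE) and a p-value adjusted by Benjamini-Hochberg over all tested probe sets. A probe set was called at an adjusted p of at most 0.05, and tested where its mean signal over a line's arrays reached the median of all probe sets (57.2 in HEK293 and 83.3 in 143B). In HEK293 cells 19 of the 22 member probe sets, of 9 genes, were tested, and in 143B cells 18, of 8 genes. EGLN3 was under the limit in 143B cells. As these are bulk samples, fewer cells of a kind and less RNA per cell cannot be told apart.

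Levels of the glucose carriers lay apart between HEK293 and 143B rho+ cells, while those of some others lay close on their brightest probe sets. SLC2A1, the basal glucose carrier GLUT1, read 318 to 626 over the 18 HEK293 arrays and 1856 to 8603 over the 6 143B arrays (201250_s_at). SLC2A3, the high-affinity carrier GLUT3, read 292 to 1282 in HEK293 and 4736 to 9235 in 143B rho+ cells (202499_s_at). Its rho0 arrays, at 859 to 2712, overlapped the HEK293 range. VEGFA lay apart too, at 822 to 2776 in HEK293 and 4246 to 5460 in rho+ cells (210512_s_at). BNIP3 had a mean of 3975 in DN-POLG cells at day 0 and 3896 in rho+ cells (201849_at), and EGLN1 means of 3459 and 3756 (223046_at). On another EGLN1 probe set, 221497_x_at, these means were 914 and 2307. EGLN3 was the dim one, at 30.9 to 90.7 in 143B rho+ cells (222847_s_at). The lines differ in the ACTB ratio, so no test of these levels between lines was made.

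**Figure D1:**
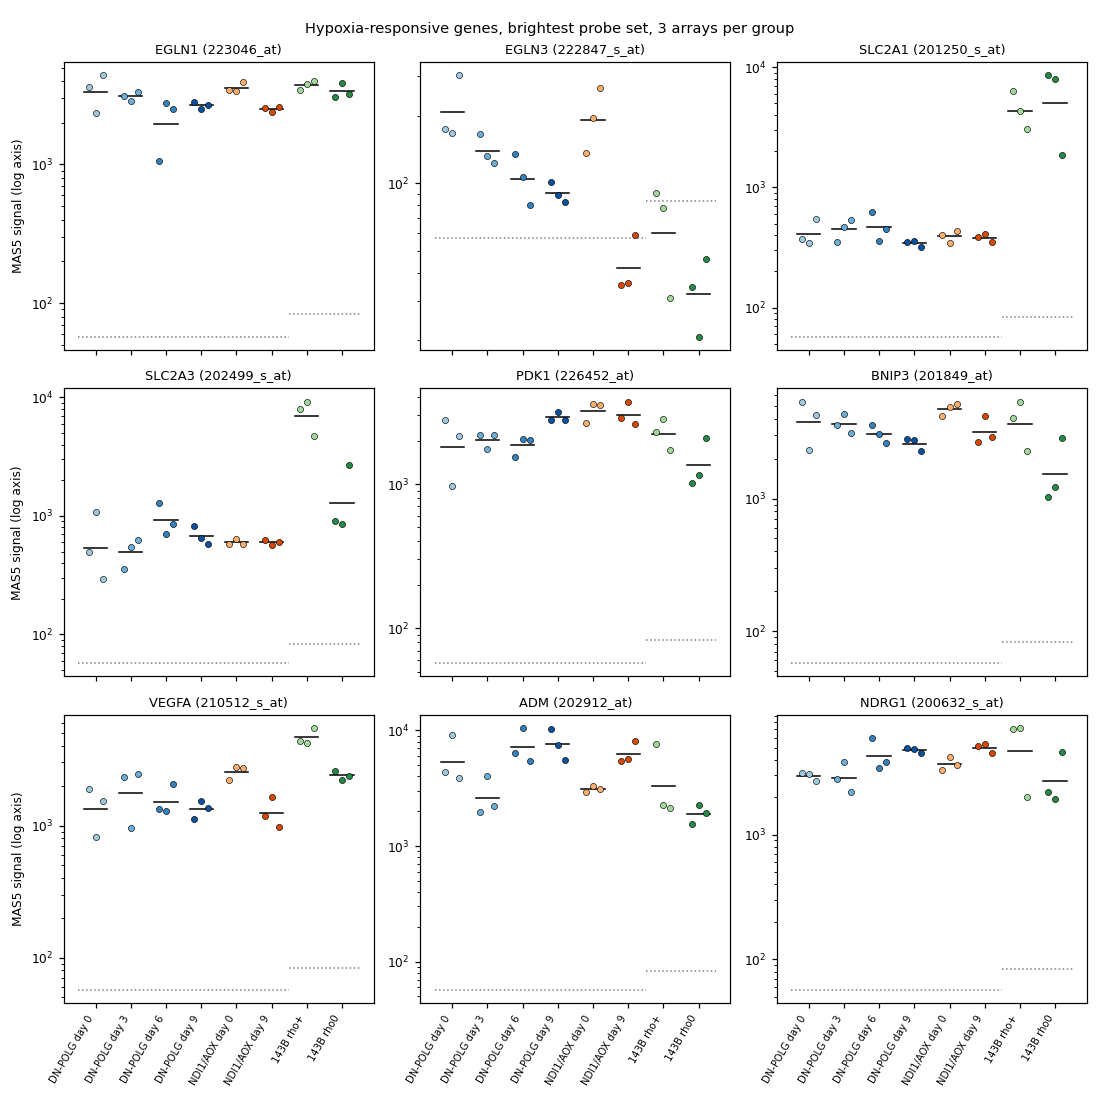
MAS5 signal (log axis) of the brightest probe set of each of the 9 measured members in the 8 groups; points are arrays, in the order of their replicate numbers, black bars geometric means of 3 arrays, and dotted lines the signal limit for testing (57.2 in HEK293, 83.3 in 143B). EGLN3 was lower at day 9 than uninduced in both HEK293 models, and SLC2A3 was lower in 143B rho0 than in rho+ cells.

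Early in the depletion no member passed the test. At day 3, 0 of 19 member probe sets were called by limma, against 0% of all 23132 tested, and 0 by an ordinary ANOVA model. An unadjusted p under 0.05 was reached by 630 of all probe sets and by 1 of the members. That 1 was ADM, the vasodilator peptide adrenomedullin, which read 4339, 9194 and 3848 at day 0 and 1968, 3997 and 2224 at day 3. As groups they overlapped through the array of 3997, and within each replicate number day 3 was lower. The change was -1.04 (SE 0.36, adjusted p = 0.9997), and it was not called with the replicate number as a block either. It was called, at -1.11 with an adjusted p of 0.02934, when arrays were weighted by their quality, a setting that called 200 of all 23132. At day 6, 0 of 19 were called, against 1.37% of all probe sets, and 0 by the ANOVA model. The unadjusted p was under 0.05 for 5 of the 19 and for 3724 of all 23132. Of the 318 probe sets called in all at day 6, 243 were lower and 75 higher, and the split turned to 45 lower and 80 higher with arrays set to one median, and was 106 and 76 after quantile scaling. With the replicate number as a block, 43 probe sets were called at day 6 in all, and again 0 members. The array of day 6 replicate 1, which had the high ACTB ratio, had the lowest EGLN1 signal of its group (1064 against 2790 and 2521, 223046_at). Without that array 167 probe sets were called at day 6 in all, 125 lower and 42 higher, and 0 members.

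At day 9, with some mtDNA transcripts down, the members did not move as one. In DN-POLG cells 3 of 19 probe sets were called, against 8.38% of all, and they belonged to 3 genes and went both ways: EGLN3 fell, while 1 of the 3 SLC2A3 probe sets and 1 of the 4 VEGFA probe sets rose. In NDI1/AOX cells 1 of 19 was called, EGLN3 again, against 11.8% of all. The median change over the tested member probe sets was 0.22 (log2) in DN-POLG and -0.04 in NDI1/AOX cells, beside 0.01 and -0.04 for all probe sets. In DN-POLG cells 2 member probe sets had every day 9 array below every day 0 array and 3 had every one above, where 13.8% and 10.1% of all probe sets did so. For NDI1/AOX the counts were 6 below and 3 above, with 28.6% and 23.2% of all probe sets. Of all 2728 probe sets called in NDI1/AOX cells 2158 were lower and 570 higher, and with arrays set to one median 1255 were lower and 778 higher, and after quantile scaling 1612 and 817. Days 3, 6 and 9 of DN-POLG share the same day 0 arrays.

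EGLN3 was the member with calls in both HEK293 models. In DN-POLG cells 222847_s_at read 175, 168 and 303 at day 0, 165, 132 and 122 at day 3, 135, 106 and 79.9 at day 6, and 101, 88.6 and 82.7 at day 9. Every day 9 array lay below every day 0 array. The change at day 9 was -1.20 (SE 0.30) on the log2 scale, a 2.29-fold fall, with an adjusted p of 0.02099. The NDI1/AOX signals were 136, 194 and 265 at day 0 and 35.2, 35.8 and 58.6 at day 9, again with no overlap. That change was -2.19 (SE 0.30), a 4.56-fold fall, with an adjusted p of 0.000352. The NDI1/AOX day 9 mean of 43.2 lies below the limit for testing, where the signal is near background, so the fold is uncertain in size. The other EGLN3 probe set, 219232_s_at, was too dim to be tested, and its mean went from 99.2 to 34.4 in DN-POLG and from 90.2 to 21.0 in NDI1/AOX cells. The DN-POLG call was lost without day 0 replicate 3 (adjusted p = 0.0839), day 9 replicate 2 (0.06438) or day 9 replicate 3 (0.08039), with no signal limit (0.06457) and with only the 6 arrays compared in the model (0.09451), while the NDI1/AOX call held in all 16 alternatives that tested it. The ACTB ratio of NDI1/AOX cells was 1.27 to 1.52 at day 9 and 1.14 to 1.18 at day 0, and its part in this result was not tested.

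EGLN1, the main sensor in most cells, read 3603, 2362 and 4413 at day 0, 2821, 2499 and 2681 at day 9, and in NDI1/AOX cells 3448, 3369 and 3940 at day 0 and 2564, 2392 and 2578 at day 9 (223046_at). The DN-POLG groups overlapped and the NDI1/AOX groups did not. The change in NDI1/AOX cells was -0.51 (SE 0.30, adjusted p = 0.301), and it was called when only those 6 arrays were in the model (0.01822) or arrays were weighted (0.005262). Of all 23132 probe sets those settings called 7538 and 9691, against 2728 in the main model. The other tested EGLN1 probe sets, 221497_x_at and 224314_s_at, were not called in any comparison.

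Among the glucose carriers, SLC2A3 probe set 202497_x_at read 163, 420 and 198 at day 0 and 515, 666 and 719 at day 9 in DN-POLG cells, with 197, 222 and 325 at day 3 and 246, 352 and 466 at day 6. All day 9 arrays lay above all day 0 arrays. The rise was 1.39 (SE 0.35) on the log2 scale, 2.63-fold, with an adjusted p of 0.02107. The NDI1/AOX signals were 261, 290 and 340 at day 0 and 724, 828 and 426 at day 9, without overlap, and the change of 1.10 (SE 0.35) just missed the threshold (adjusted p = 0.05207). The other probe sets of the gene, 202498_s_at and 202499_s_at, were not called, with DN-POLG changes of 0.43 and 0.34 at day 9. With the 3 averaged, the change was 0.72 and no longer called (adjusted p = 0.1904), and the call of 202497_x_at was also lost without day 0 replicate 1 (0.09691), day 0 replicate 3 (0.06971), day 9 replicate 2 (0.06936) or day 9 replicate 3 (0.08526). That call was lost too with no signal limit (0.0648) and with only the arrays compared in the model (0.1197). The name ending of 202497_x_at marks probes that can bind other transcripts, and SLC2A14 is a near-identical neighbour of SLC2A3. A pair of probe sets listed for both genes was left out of the tests. One of them, 216236_s_at, read 123 to 319 at day 0 and 306 to 426 at day 9 in DN-POLG cells. SLC2A1 read 374, 347 and 543 at day 0 and 351, 361 and 318 at day 9, and was not called.

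**Figure D2:**
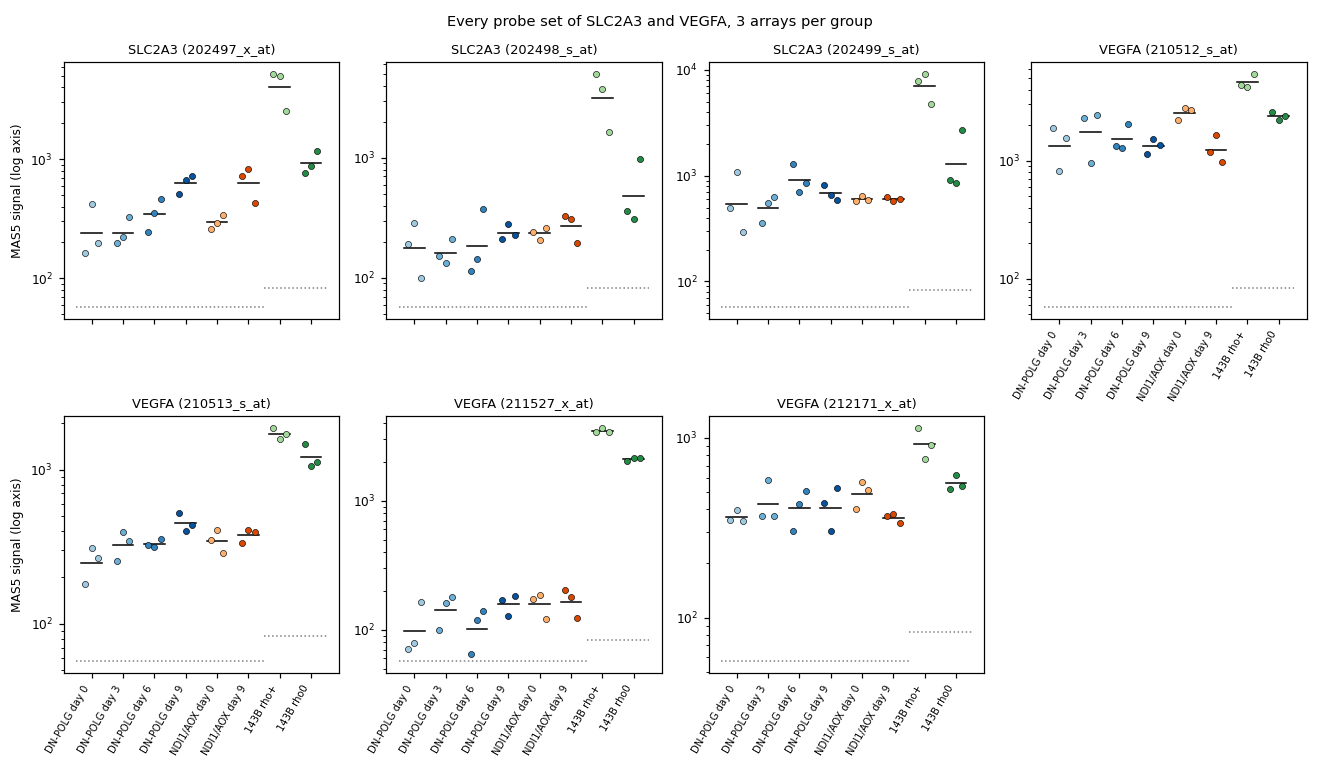
MAS5 signal (log axis) of every single-symbol probe set of SLC2A3 (3) and VEGFA (4) in the 8 groups; points are arrays, black bars geometric means of 3 arrays, dotted lines the signal limit for testing. In DN-POLG cells 202497_x_at of SLC2A3 and 210513_s_at of VEGFA were higher at day 9 than at day 0 while the others overlapped, and in 143B cells all 7 were lower in every rho0 array than in every rho+ array.

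Of the mitochondrial members, PDK1 is a pyruvate dehydrogenase kinase. It read 2802, 965 and 2164 at day 0 and 2775, 3178 and 2778 at day 9 in DN-POLG cells (226452_at). The groups overlapped, and none of its 3 tested probe sets was called in HEK293 cells. BNIP3, a receptor that sends mitochondria to autophagy, read 5306, 2323 and 4296 at day 0 and 2810, 2749 and 2268 at day 9 (201849_at). The low day 0 array, replicate 2, was also among those least like its group (mean correlation 0.921), and the change of -0.53 had an adjusted p of 0.2841. Without that array it was -0.88 and called (adjusted p = 0.03194), as were 2249 of all 23132 probe sets, against 1939 with it. The array was singled out here by its BNIP3 value, so this is a description. On 201848_s_at every day 9 array lay below every day 0 array, with a change of -0.56 (adjusted p = 0.3003). NDI1/AOX cells had BNIP3 signals of 4205, 4900 and 5161 at day 0 and 2689, 4187 and 2914 at day 9, below in every array, with a change of -0.57 (SE 0.27, adjusted p = 0.2041).

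The secreted members differed between their probe sets. VEGFA, the vascular growth factor, read 182, 311 and 268 at day 0 and 526, 399 and 437 at day 9 on 210513_s_at in DN-POLG cells. All day 9 arrays were higher, by 0.87 (SE 0.23) on the log2 scale or 1.82-fold, with an adjusted p of 0.02861. The brightest probe set, 210512_s_at, read 1903, 822 and 1542 at day 0 and 1126, 1524 and 1351 at day 9, a change of -0.02 (adjusted p = 0.9863). In NDI1/AOX cells 210512_s_at read 2216, 2776 and 2708 at day 0 and 1184, 1657 and 970 at day 9, lower in every array, but the change of -1.04 (SE 0.37) had an adjusted p of 0.07664, and it was called when only those 6 arrays were in the model (0.01489). That setting called 7538 of all 23132 probe sets, against 2728 in the main model. The call of 210513_s_at was lost with the probe sets averaged (0.2252), with the replicate number as a block (0.05812), and without day 0 replicate 1 (0.1251), day 9 replicate 1 (0.1072) or day 9 replicate 3 (0.0749). It was lost too with no signal limit (0.08218) and with only the arrays compared in the model (0.1744).

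ADM read 4339, 9194 and 3848 at day 0 and 10299, 7506 and 5568 at day 9 in DN-POLG cells, which overlapped. Its NDI1/AOX signals were 2928, 3334 and 3100 at day 0 and 5398, 5652 and 8025 at day 9, higher in every array. That change was 1.01 (SE 0.36, adjusted p = 0.08325), and it was called with the replicate block (0.04318) or with only those 6 arrays in the model (0.00856). Of all 23132 probe sets those settings called 2293 and 7538, against 2728 in the main model. NDRG1, a growth-arrest and stress protein, read 3122, 3075 and 2702 at day 0, 5947, 3433 and 3808 at day 6 and 4944, 4830 and 4487 at day 9 in DN-POLG cells. Its day 9 arrays lay above all day 0 arrays, with a change of 0.68 and an adjusted p of 0.08654. The call was made (0.03055) when day 6 replicate 1, the array with the high ACTB ratio, was left out of the model. That setting was not planned, and the array is in neither group compared. With it left out, 2791 of all 23132 probe sets were called at day 9, against 1939.

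**Figure D3:**
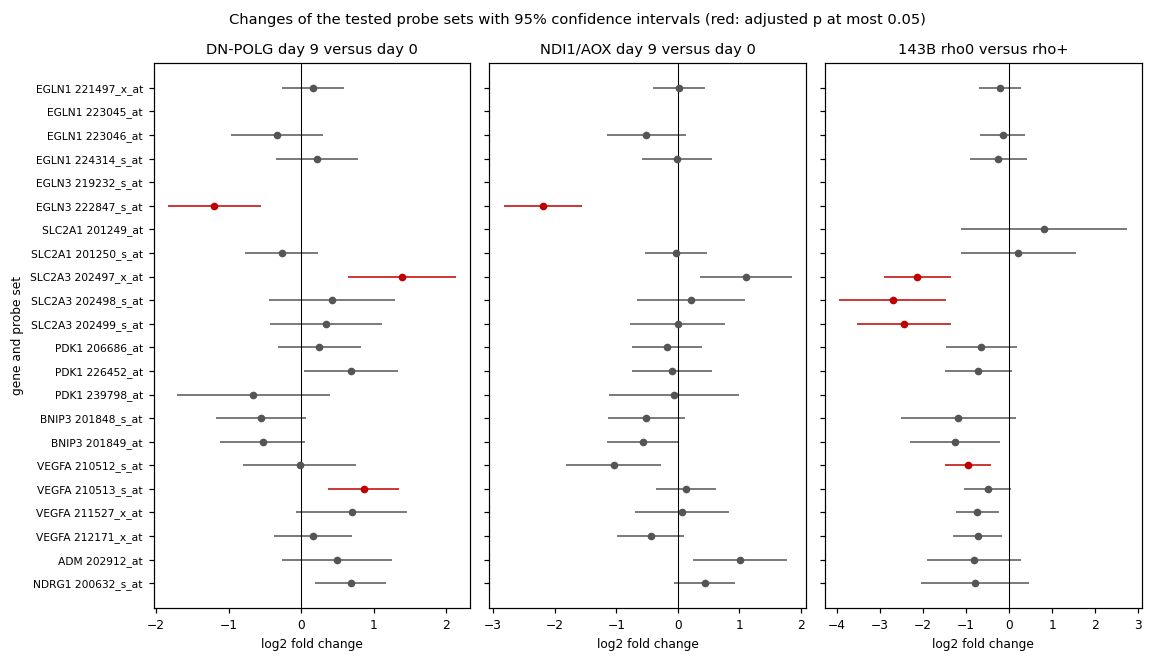
Log2 fold changes of the tested member probe sets with 95% confidence intervals, for day 9 against day 0 in DN-POLG and in NDI1/AOX cells and for rho0 against rho+ in 143B cells; red marks an adjusted p of at most 0.05, and rows without a point were too dim to be tested in that line. The called changes go both ways in DN-POLG cells and downward in the other panels.

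Whether electron transport through NDI1/AOX altered the response was tested as the difference between the day 9 responses. It was called for 0 of 19 member probe sets by limma, against 0% of all, and for 0 by the ANOVA model. The unadjusted p was under 0.05 for 784 of all 23132 probe sets and for 2 member probe sets. Those were EGLN3 222847_s_at, whose fall was smaller in DN-POLG than in NDI1/AOX cells by 0.99 (95% interval 0.09 to 1.90, adjusted p = 0.9994), and VEGFA 210513_s_at, whose change was greater by 0.73 (0.04 to 1.43, adjusted p = 0.9994). The intervals leave room for differences, so like responses are not shown. Before induction, NDI1/AOX and DN-POLG cells differed in 0 of 19 member probe sets by limma, against 0.00432% of all, and in 0 by the ANOVA model. The unadjusted p was under 0.05 for 1125 of all 23132 probe sets and for 3 member probe sets. These were PDK1 226452_at, higher in NDI1/AOX by 0.84 (SE 0.31), VEGFA 210512_s_at, higher by 0.93 (SE 0.37), and ADM, with a change of -0.78 (SE 0.36), each with an adjusted p of 0.906.

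In 143B cells the called members, SLC2A3 and VEGFA, were lower after lasting loss of mtDNA. Of 18 tested probe sets 4 were called, all lower in rho0 cells, against 7.65% of all 22786, and they belonged to 2 of the 8 genes tested. SLC2A1, BNIP3, PDK1, NDRG1, ADM and EGLN1 were not called. The change was negative for 16 of the 18 and its median was -0.73 (log2), beside -0.05 for all probe sets. SLC2A3 holds 3 of the 18 and VEGFA 4, so these are not separate genes. Setting arrays to one median moved the median change of all probe sets by 0.306. The EGLN1 changes, -0.25 to -0.16, are smaller than that, so their sign depends on the scaling. Every rho0 array lay below every rho+ array for 8 of the 18 and above for 0, where 18.5% and 14.5% of all probe sets did so. Over all probe sets 1232 were called lower and 511 higher, and with arrays set to one median 768 lower and 1705 higher, and after quantile scaling 1007 and 746. With one median the call of VEGFA 210512_s_at was lost while those of SLC2A3 were kept.

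SLC2A3 showed the deepest falls. On 202499_s_at it read 7931, 9235 and 4736 in rho+ and 911, 859 and 2712 in rho0 cells. On 202498_s_at it read 5026, 3770 and 1631 against 359, 312 and 982, and on 202497_x_at 5227, 5027 and 2547 against 764, 877 and 1180. No rho0 array reached a rho+ array, and replicate 3 of each group was the nearest to the other group on all 3 probe sets. In that order the log2 changes were -2.45 (SE 0.48, 5.47-fold, adjusted p = 0.02371), -2.71 (SE 0.54, 6.55-fold, adjusted p = 0.02507) and -2.13 (SE 0.34, 4.39-fold, adjusted p = 0.0136). The probe sets shared with SLC2A14 read 928 to 2469 in rho+ and 216 to 401 in rho0 cells (216236_s_at), and 2595 to 6059 against 382 to 1277 (222088_s_at). All 3 calls were lost without rho+ replicate 1 (adjusted p from 0.05783 to 0.08827), without rho+ replicate 2 (0.07078 to 0.1073), with no signal limit (0.06879 to 0.1025) and with the ANOVA model (0.09652 to 0.1478). Those of 202498_s_at and 202499_s_at were also lost with the replicate block (0.06759 and 0.06191), without rho0 replicate 1 (0.07913 and 0.07551) and without rho0 replicate 2 (0.07874 and 0.0757). They were kept in 9 and 8 of 16 alternatives, and that of 202497_x_at in 12. SLC2A1 read 6304, 4339 and 3034 in rho+ and 8603, 7961 and 1856 in rho0 cells, and was not called.

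VEGFA 210512_s_at read 4359, 4246 and 5460 in rho+ and 2590, 2217 and 2381 in rho0 cells, with a change of -0.96 (SE 0.23), a 1.95-fold fall, and an adjusted p of 0.04484. The other 3 VEGFA probe sets had no overlap either and changes of -0.74 to -0.50, none of them called. The call of 210512_s_at was kept in 6 of 16 alternatives and lost without any 1 array other than rho0 replicate 3 (adjusted p from 0.1004 to 0.1609). EGLN1 read 3434, 3821 and 4013 against 3054, 3860 and 3232 on 223046_at, which overlapped. EGLN3 (222847_s_at) was near background, at 90.7, 77.8 and 30.9 against 34.5, 20.7 and 46. ADM read 7556, 2268 and 2144 in rho+ and 1545, 2242 and 1919 in rho0 cells, so that 1 array sets the rho+ mean.

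For BNIP3, PDK1, NDRG1 and SLC2A1 the order depended on the replicate number. BNIP3 201849_at read 4022, 5392 and 2275 in rho+ and 1022, 1223 and 2848 in rho0 cells, so the rho0 array numbered 3 was above the rho+ array numbered 3 and below the other rho+ arrays. PDK1 226452_at read 2284, 2837 and 1722 against 1020, 1160 and 2089, and NDRG1 6996, 7165 and 2015 against 2196, 1922 and 4608, with the same turn. SLC2A1 201250_s_at turned the other way, higher in rho0 cells at numbers 1 and 2 and lower at number 3. Rho0 replicate 3 was least like its group (mean correlation 0.896). The labels do not tie the numbers of the groups to each other, and what sets these arrays apart was not tested. Both arrays numbered 3 were singled out by these values, so what follows without them, with 2 arrays against 2, is a description and supports no direction. The log2 change was then -3.70 to -2.65 for SLC2A3, -2.06 and -2.24 for BNIP3, -1.79 for NDRG1, -1.20 and -1.23 for PDK1, and 1.62 and 0.66 for the SLC2A1 probe sets, while 24.4% of all probe sets were called. The ACTB ratio was lower in all rho0 than in all rho+ arrays, and its part in the falls was not tested.

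**Figure D4:**
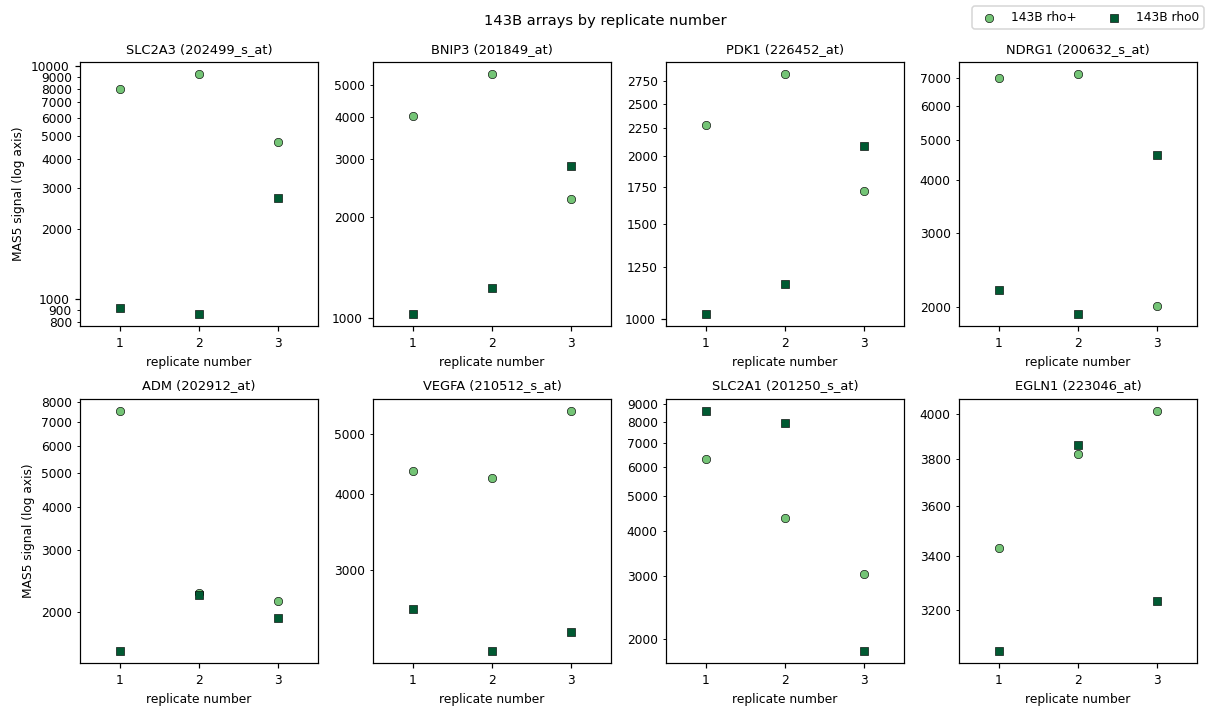
MAS5 signal (log axes that do not start at the same value) of 8 members in 143B rho+ (light circles) and rho0 (dark squares) arrays against the replicate number in the labels; each point is 1 array. For BNIP3, PDK1 and NDRG1 the rho0 array was lower at numbers 1 and 2 and higher at number 3, SLC2A1 did the reverse, and SLC2A3 and VEGFA were lower at every number.

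The acute loss of mtDNA in HEK293 cells and the lasting loss in 143B cells were set against each other in a model of all 24 arrays, a comparison added after seeing the data. Their responses differed for 5 of 17 member probe sets tested in both lines, against 9.86% of all 19451, and all 5 were higher in the DN-POLG day 9 response. They were the 3 of SLC2A3 and 2 of VEGFA. For SLC2A3 202497_x_at the difference was 3.53 (log2, SE 0.50, adjusted p = 0.0001964), with every DN-POLG day 9 array above every DN-POLG day 0 array and every rho0 array below every rho+ array. For VEGFA 210513_s_at it was 1.37 (SE 0.32, adjusted p = 0.00963), with the same 2 orders. PDK1 226452_at had a difference of 1.41 that just missed the threshold (adjusted p = 0.05247). Cell line, way and length of depletion, and array quality cannot be told apart here.

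The rest of the pathway was read from lists chosen with earlier results known. Among 14 genes of oxygen sensing, 24 probe sets of 12 genes were tested in HEK293 cells, of which 2 were called lower at day 9 in DN-POLG and 3 in NDI1/AOX cells, and 0 higher in either. These shares are near the 8.38% and 11.8% of all probe sets, which also lean lower. In DN-POLG cells these were HIF1AN, the asparaginyl hydroxylase that also restrains HIF, at 195, 224 and 358 at day 0 and 121, 31.0 and 106 at day 9 (-1.76, adjusted p = 0.01848, but -1.14 and 0.07358 without day 9 replicate 2, and 0.07197 without day 0 replicate 3), and the coactivator CREBBP (-1.71, adjusted p = 0.04794). In NDI1/AOX cells they were HIF1AN on another probe set (-1.06, adjusted p = 0.04745), the coactivator EP300 (-1.33, adjusted p = 0.01011) and VHL, which takes hydroxylated HIF to destruction (-0.86, adjusted p = 0.03794). The calls of CREBBP, of HIF1AN in NDI1/AOX cells and of VHL were kept in 6, 6 and 9 of 17 alternatives. In 143B cells 1 of 27 was called, against 7.65% of all probe sets. It was HIF1A, the regulated HIF subunit, at 7344, 7991 and 9528 in rho+ and 2742, 3376 and 4545 in rho0 cells, a change of -1.24 (SE 0.27) or a 2.37-fold fall (adjusted p = 0.03286), a call kept in 8 of 17 alternatives.

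Among 30 other HIF targets, 54 probe sets were tested in HEK293 cells. At day 9, 4 were lower and 2 higher in DN-POLG, and 7 lower and 0 higher in NDI1/AOX cells. In 143B cells 6 of 55 were lower and 0 higher. The shares of all probe sets called were 8.38%, 11.8% and 7.65%, which are near those of this list. AK4, a mitochondrial adenylate kinase, was the gene named in all 3. It read 2016, 2847 and 2245 at day 0 and 1228, 940 and 845 at day 9 in DN-POLG cells, a change of -1.24 (adjusted p = 0.001521, but 0.0655 with only those 6 arrays in the model). The change was -0.96 in NDI1/AOX cells (adjusted p = 0.005796), but -0.25 with its probe sets averaged (adjusted p = 0.4094) and no longer called with arrays set to one median (adjusted p = 0.05393), and it was -1.36 in rho0 cells (adjusted p = 0.02614, kept in 8 of 17 alternatives). The rises in DN-POLG cells were in the repressor BHLHE40 (1.94, adjusted p = 0.01453, while its probe set 201170_s_at changed by 0.39 and was not called) and in the hormone STC2 (1.23 on 203439_s_at, adjusted p = 0.01347), but STC2 203438_at was called lower (-0.89, adjusted p = 0.01752), so the direction of STC2 is not settled. TFRC, the transferrin receptor, fell, with changes of -1.01 in DN-POLG cells (adjusted p = 0.02751, kept in 7 of 18 alternatives) and -1.21 in NDI1/AOX cells (adjusted p = 0.007644).

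DDIT4, an inhibitor of mTORC1, fell in NDI1/AOX cells from 2046, 3474 and 3196 to 655, 691 and 690 (-2.06, SE 0.37, adjusted p = 0.002173), and its change in DN-POLG cells was 0.06 (adjusted p = 0.9594). HILPDA, a lipid droplet protein, fell there by 1.13 (adjusted p = 0.00312). In rho0 cells INSIG2, a brake on sterol synthesis (-1.52, adjusted p = 0.01654), the collagen cross-linker LOX (-1.61, adjusted p = 0.02371) and the lipoprotein receptor VLDLR (-1.42, adjusted p = 0.02507) were lower. LOX is also on the list of 143B markers. LOX and VLDLR calls were kept in 9 and 8 of 16 alternatives. Among 17 HIF-regulated glycolysis genes, 0 of 33 probe sets were called at day 9 in DN-POLG cells by limma (0 at an unadjusted p under 0.05, against 4924 of all 23132), 1 was lower in NDI1/AOX cells (PGK1 217383_at, -1.99, adjusted p = 0.02952) and 2 of 34 were lower in rho0 cells (PGK1 1558365_at, -1.41, and PFKFB4, -1.42). The shares of all probe sets called were 8.38%, 11.8% and 7.65%, and the list stayed below each of them. With its probe sets averaged PGK1 changed by -0.41 in NDI1/AOX cells (adjusted p = 0.2791) and by -0.38 in rho0 cells (adjusted p = 0.378), neither called. Over the 4 lists, the 22 calls in 143B cells became 3 without rho+ replicate 2 and 51 without rho0 replicate 3. Calls over all 22786 probe sets went from 1743 to 241 and to 5877 in those settings. None of these lists was called in any probe set at day 3, in the difference of the day 9 responses, or between the models at day 0.

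Of the receptors and relatives of the members, the called probe sets were all lower. At day 6, 2 of 37 probe sets of this list were lower and 0 higher, where 1.37% of all probe sets were called. At day 9, 4 were lower in DN-POLG and 5 in NDI1/AOX cells, and in 143B cells 13 of 46 were lower, with 0 higher in any of them. The HEK293 shares at day 9 are near those of all probe sets (8.38% and 11.8%), and the 13 in 143B cells, where 7.65% of all were called, came from 5 genes, with 8 of them NRP2 probe sets. NRP1, a co-receptor of VEGFA, read 387, 223 and 684 at day 0, 96.3, 174 and 88.8 at day 6 and 71.6, 86.9 and 92.7 at day 9 in DN-POLG cells (212298_at). The changes were -1.77 (adjusted p = 0.02931) and -2.23 (adjusted p = 0.001223), and in NDI1/AOX cells -2.10 (adjusted p = 0.00132), but NRP1 210510_s_at changed by 0.85 at day 9 in DN-POLG cells (adjusted p = 0.06502). FLT1, a VEGFA receptor, fell, with changes of -1.48 on 226497_s_at in DN-POLG cells (adjusted p = 0.009883) and -2.09 on 226498_at in NDI1/AOX cells (adjusted p = 0.001899). With a gene's probe sets averaged, neither was called at day 9 in DN-POLG cells (NRP1 -0.69, adjusted p = 0.07517, and FLT1 -0.69, adjusted p = 0.1313). The day 6 calls of NRP1 and FLT1 were kept in 7 and 5 of 16 alternatives, and were lost with the replicate block and without day 6 replicate 1 (adjusted p = 0.07198 and 0.1053). SLC2A12, a relative of the glucose carriers, fell, with changes of -1.19 in DN-POLG (adjusted p = 0.008834) and -1.45 in NDI1/AOX cells (adjusted p = 0.001931), and SLC2A13, an inositol carrier, with -1.37 in NDI1/AOX cells (adjusted p = 0.006425).

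In 143B cells the receptor of ADM fell to near background. CALCRL, which forms the adrenomedullin receptor with a RAMP protein, read 2097, 1590 and 1252 in rho+ and 40.5, 18.7 and 8.43 in rho0 cells (206331_at), all of the latter below the limit for testing. The fitted change was -6.44 (SE 0.52, adjusted p = 0.001382), and 234996_at gave -4.21 (adjusted p = 0.001382). With rho0 signals near background the fall is uncertain in size. Its partner RAMP2, named after its values were seen, read 357, 254 and 285 against 57.4, 82.5 and 175 (-1.65, adjusted p = 0.0466). NRP2, a co-receptor of the VEGF family, was lower on 8 probe sets, with 3027, 3717 and 2547 against 763, 709 and 944 on 219367_s_at (-1.94, adjusted p = 0.007594), while NRP2 210842_at changed by 1.27 and was not called (adjusted p = 0.1297). NDRG4, a relative of NDRG1, and SLC2A10 were lower, with changes of -1.33 (adjusted p = 0.03058) and -1.22 (adjusted p = 0.04395), each kept in 6 alternatives.

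**Figure D5:**
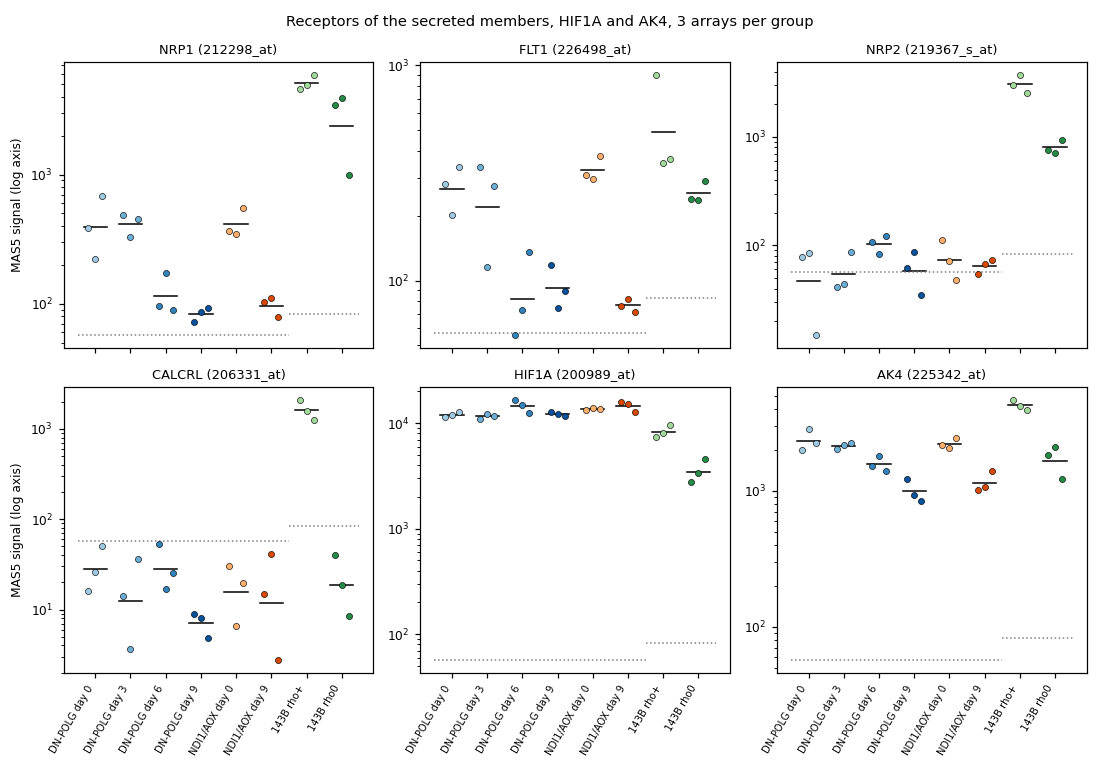
MAS5 signal (log axis) of receptors of VEGFA and ADM (NRP1, FLT1, NRP2, CALCRL), HIF1A and AK4 in the 8 groups; points are arrays, black bars geometric means of 3 arrays, dotted lines the signal limit for testing. NRP1 and FLT1 were lower at day 9 than at day 0 in HEK293 cells, and NRP2, CALCRL and HIF1A were lower in rho0 than in rho+ cells with no overlap.

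The genes whose log2 signal followed the called members most closely over the 18 HEK293 arrays were, for EGLN3 222847_s_at, TM2D2 (r = 0.92), PAG1 (0.92) and HPS6 (0.90). For SLC2A3 202497_x_at they were LINC00115 (0.86), NBPF20 (0.86) and ZNF449 (0.85), and for VEGFA 210513_s_at DTD1 (0.80), ATP6V1G2 (0.79) and CYTH2 (0.77). These are descriptions over arrays that share groups and scaling.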

How the data were processed

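Total RNA of the 24 samples was hybridised to 3′ expression arrays. The deposited values are MAS5 signal intensity on a linear scale, made by the authors with Affymetrix Expression Console per the submitters' notes, with each array scaled to one trimmed mean. Probe sets were named through the platform annotation: of 54675, 41097 had 1 symbol, 1801 several and 11777 none, and 41043 matched a gene ID. Signals were log2 transformed with nothing added. Control probe sets were left out, and tested ones had a mean log2 signal at or above the line's median. limma 3.58.1 (R 4.3.3) fitted the 18 HEK293 arrays in 1 model of group means and the 6 143B arrays in another, two-sided, and its script was tested on simulated data. Named genes were all members and, per list and comparison, up to 4 called genes with the smallest p. The members and lists were chosen with earlier results of these data known. Replicates are called independent biological replicates in the labels. The study's methods describe culture rounds from 1 starter culture and pooled flasks at days 6 and 9, but no source ties numbers to rounds. Deviations of same-numbered arrays correlated by 0.32 to 0.51 (days 0 and 3) and 0.17 to 0.21 (days 0 and 6), but by -0.32 to 0.04 (days 0 and 9), -0.04 to 0.07 (NDI1/AOX) and -0.18 to 0.07 (143B). The main models did not pair arrays by number. The replicate block, an alternative, used the numbers within each cell model and at all days, also where these correlations were near or below 0. Alternatives were quantile and median scaling, other signal limits, log2(signal + 32), no _x_at and _s_at probe sets, averaging a gene's probe sets, fewer arrays in the model, array weights, the ordinary linear model of ANOVA used in the methods, a replicate block and leaving out each array. Arrays have no read depth, so their number limits the precision.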

Additional observations from a re-analysis of the deposited data

Results flagged for a closer look

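The changes of SLC2A3 and VEGFA differed between the lines: the response of DN-POLG cells at day 9 minus that of 143B rho0 cells passed the test in a model of all 24 arrays. The log2 difference was 3.5276 for SLC2A3 202497_x_at, 3.1408 for 202498_s_at and 2.7918 for 202499_s_at. It was 1.369 for VEGFA 210513_s_at and 1.4373 for 211527_x_at (adjusted p = 0.04949). The first of each gene was higher in every DN-POLG day 9 array than in every day 0 array, and lower in every rho0 array than in every rho+ array. For the other 3 probe sets the DN-POLG groups overlapped.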

How the results depend on the processing

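Across 1741 single-gene values under the alternatives, 1509 stayed on their side of the threshold, 209 calls were lost, 23 were gained and 0 called values changed direction, while 67 of 1020 uncalled differences changed sign. Counts of called member probe sets moved most with array weights, to 1 at day 3, 1 at day 6, 7 at day 9 (3 in the report), 9 in NDI1/AOX cells (1), 2 between the models at day 0, 12 in 143B cells (4) and 12 in the difference between lines (5). Calls over all probe sets moved too. Of all 23132, weights called 200 at day 3, 984 at day 6, 5687 at day 9, 9691 in NDI1/AOX cells and 1030 between the models. In 143B cells weights called 8307 of all 22786. Counts of members and lists are to be read beside these. At day 9 the 3 became 1 with no signal limit, where all 3 calls of the report were lost and the 1 was another probe set. They became 1 with probe sets averaged, and 0 with a stricter limit, with only the arrays compared, or without _x_at and _s_at probe sets. In NDI1/AOX cells the 1 became 2 with quantile scaling, no limit, log2(signal + 32) or day 6 replicate 1 left out, 6 with only the arrays compared, 3 with the replicate block, and 0 with a stricter limit or without _x_at and _s_at probe sets. With only the arrays compared, 7538 of all 23132 were called in NDI1/AOX cells and 328 at day 9 in DN-POLG cells. The report has 2728 and 1939 there. In 143B cells the 4 became 0 with no limit or without _x_at and _s_at probe sets, 1 with probe sets averaged, the ANOVA model or the replicate block, and 10 without both arrays numbered 3, where the difference between lines gave 9. Of all 22786 in 143B cells the ANOVA model called 93 and the replicate block 725, against 1743 in the report. Leaving out 1 array gave 0 to 1 at day 6, 0 to 4 at day 9, 1 to 2 in NDI1/AOX cells, 0 to 8 in 143B cells and 4 to 8 between lines. The 4 other lists together had 2 calls at day 6, which became 0 (one median, no limit, averaged, only the arrays compared, block), 1 (quantile, stricter limit, ANOVA) or 5 (weights), and 0 to 7 without 1 array. Their 12 at day 9 became 7 (no limit), 4 (stricter), 3 (averaged), 2 (only the arrays compared) or 22 (weights), and 6 to 16 without 1 array. Their 16 in NDI1/AOX cells became 51 (only the arrays compared), 74 (weights) or 26 (day 6 replicate 1 left out), and 11 to 20 without 1 array. Their 22 in 143B cells became 6 (no limit), 12 (averaged), 71 (weights), 0 (ANOVA), 13 (block) or 57 (without both arrays numbered 3), and 3 to 51 without 1 array. All member calls in HEK293 cells and 143B cells were on _x_at or _s_at probe sets, so 0 without those follows from the choice, as it does with the stricter limit for calls too dim to pass it. For the other settings the cause was not tested. Dim probe sets such as EGLN3 carry the least signal over background.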
